A study of Bos taurus and Ovis aries and Capra hircus with 18 samples.

Results

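Brain and muscle of adult cattle (Bos taurus) were compared in 6 libraries, 3 titled brain and 3 titled muscle, out of 18 libraries that also cover sheep and goat. The labels describe frozen tissue and poly(A)-selected RNA, and name no treatment, mutation or transgene in either tissue. The brain region, the muscle, the breed, the sex and the age in years were not used here, because no source at hand names them. Libraries A, B and C of a tissue are not stated to come from separate animals. The p-values therefore measure the spread between these samples and may not cover that between animals. All 27607 genes of the cattle gene models on build ARS-UCD1.2 entered the analysis, with or without a partner in sheep or goat.

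Brain tissue is a mixture of neurons, which signal by releasing transmitters at synapses, and of glia, which make myelin, take up spent transmitter and serve the blood vessels. Skeletal muscle consists mostly of long fused fibres packed with myosin and actin filaments, and its fibres are slow or fast according to the myosin they carry. Both tissues use much energy, and many of their enzymes, pumps and channels exist in several forms encoded by separate genes.

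The brain libraries held 42891698 to 58514630 counts and the muscle libraries 40878387 to 53560617. Levels are given in CPM, the count of a gene per library total scaled by the trimmed mean of M values (TMM), and 3 values in a row stand for libraries A, B and C. Differences are log2 of brain over muscle, so a negative one means higher in muscle. Standard errors follow ± beside log2 differences, and standard deviations (SD, n = 3) follow ± beside levels. Spearman correlations were 0.980 to 0.994 within brain, 0.981 to 0.986 within muscle and 0.568 to 0.579 between the tissues. Marker genes fitted the tissue labels: 5 neuron markers summed to 3987, 3591 and 3839.7 CPM in brain, against 3.52, 3.19 and 3.25 CPM in muscle. In turn, 6 muscle fibre markers summed to 21.2, 46.8 and 48.3 CPM in brain, against 158010.0, 169238 and 145329 CPM in muscle. Among the brain libraries, brain C stood apart. Of 13883 genes at 1 CPM or more in brain, brain C was at least 2-fold above both other brain libraries for 241 and below both for 182. These counts were 23 and 28 for brain A and 24 and 34 for brain B. The muscle libraries differed on this measure too, over 12382 genes at 1 CPM or more in muscle. Counts above and below were 172 and 219 for muscle A, 157 and 112 for muscle B and 76 and 106 for muscle C. Without brain C, 5643 genes were higher in brain and 4322 higher in muscle, beside 5575 and 4162 with it. In bulk tissue, fewer cells of a type and less RNA per cell cannot be told apart.

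Of 16428 genes with enough counts to test, 59.3% were called different, 33.9% (5575 genes) as higher in brain and 25.3% (4162 genes) as higher in muscle. A call needed an adjusted p (Benjamini-Hochberg, BH) under 0.05 in edgeR's quasi-likelihood test and a difference of at least 2-fold. Levels of the 3 brain and 3 muscle libraries did not overlap for 9653 of the 9737 genes called. The call rule itself makes overlap rare, and the share without overlap over all genes tested was not counted. Large differences lay mostly on the brain side, where 2754 genes were at least 10-fold higher, against 885 at least 10-fold higher in muscle. No count in any muscle library was found for 381 of the genes higher in brain, and no count in any brain library for 59 of those higher in muscle. A mean of 1 CPM or more was reached in both tissues by 11526 genes, in brain alone by 2357 and in muscle alone by 856.

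The split of the calls depended on the scaling. Brain took 57.3% of the calls with TMM and 75.9% with libraries scaled by their totals alone. The median log2 difference over all genes tested was 0.09 with TMM and 0.76 with totals alone, so differences near these values turn on that choice. Of 64 gene lists described below in part, 33 had a median difference above 0 and 31 below it. List members near 0 in a tissue had enough counts to test only through the other tissue, so such members had to differ. Counts of members called compare with 33.9% higher in brain and 25.3% higher in muscle over all genes tested. With totals alone the median changed sign in 5 lists, those for antigen presentation and interferon, the clock, complement and microglia, cell division, and glutamine, serine and ketones. Fitted differences of genes with 0 counts in a whole tissue depend on the fit, so such genes are given as a lower bound. With those genes at their bound, 5 list medians moved, by at most 2.13.

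**Figure D1:**
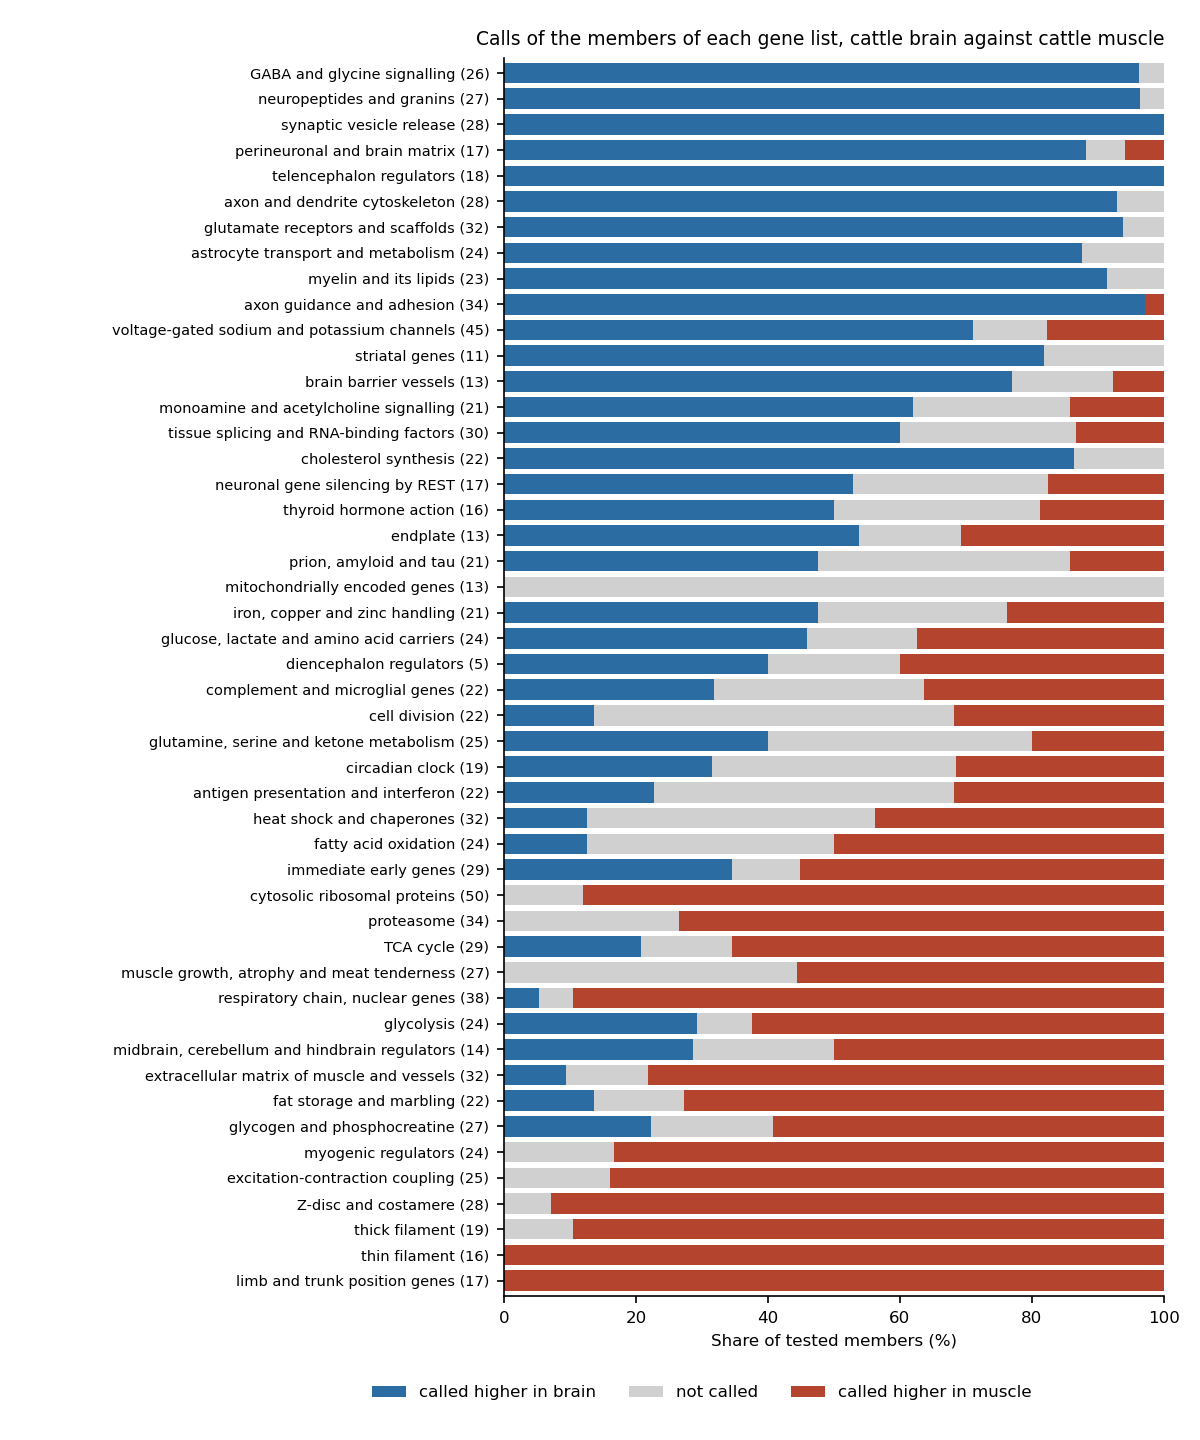
Each row is a gene list other than the cell type markers, with the number of tested members in brackets, in falling order of the median log2 difference. The x axis gives the percent of tested members called higher in brain (blue), not called (grey) and called higher in muscle (red). All 28 genes of synaptic vesicle release are blue and all 16 of the thin filament red, against 33.9% and 25.3% over all genes tested.

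The nuclear counts were spread over more genes in brain than in muscle. The 10 nuclear genes with most counts held 4.01% ± 0.589 of the nuclear counts in brain and 22.2% ± 0.936 in muscle. The 100 with most counts held 18.1% ± 1.21 in brain and 51.4% ± 0.737 in muscle. The first 50% of the nuclear counts came from 932, 892 and 1070 genes in brain, against 87, 82 and 95 genes in muscle. No brain library came near a muscle library on these measures. The exact two-sided permutation test gave p = 0.1 for both shares, the smallest p that 3 libraries against 3 allow.

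Mitochondrially encoded genes took 24.5% ± 1.90 of all counts in brain and 10.1% ± 0.474 in muscle (exact permutation test, p = 0.1, again the smallest possible). Among the 13 protein genes of that genome none was called with TMM, and 11 were called higher in brain with totals alone. Over all 35 tested genes of that genome, 42.9% were called higher in brain and 0% higher in muscle with TMM. With mitochondrial genes included, the 10 genes with most counts took 22.8% ± 1.83 of all counts in brain and 22.4% ± 0.687 in muscle (exact permutation test, p = 0.8). The nuclear and mitochondrial shares thus ran in opposite directions.

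**Figure D2:**
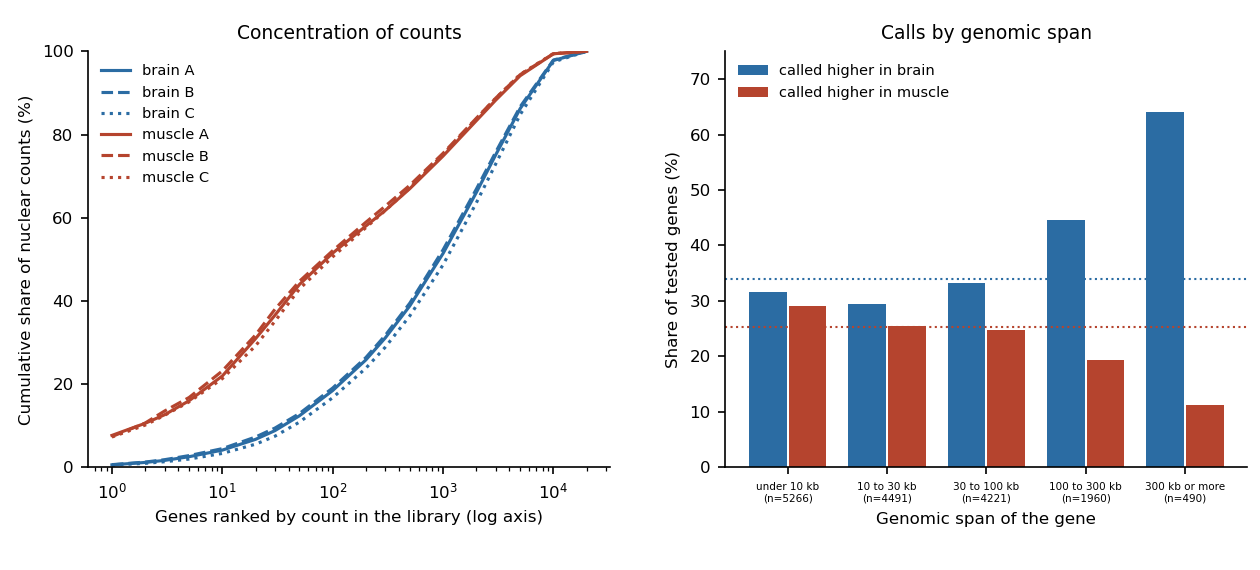
The left panel plots the cumulative share of nuclear counts in percent against genes ranked by count on a log axis, 1 line per library, with brain blue and muscle red. The right panel plots the percent of tested genes called higher in brain (blue) and in muscle (red) by genomic span, with dotted lines at 33.9% and 25.3% for all genes tested; muscle curves climb earlier than brain curves, and the share higher in brain is largest, at 64.1%, for genes of 300 kb or more.

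Of the called genes higher in muscle by a log2 difference of at least 5, those with the highest mean levels there included ACTA1, ALDOA and TPM2. ACTA1, the actin of the skeletal muscle thin filament (chromosome 28, 1400372 to 1403383 on the minus strand), had 3.03, 16.3 and 15.1 CPM in brain, against 84413, 85616 and 84069 CPM in muscle. ALDOA, the aldolase of muscle glycolysis, had 683, 713 and 646 CPM in brain, against 13898, 37509.5 and 33054 CPM in muscle. TPM2, a tropomyosin that lies along actin, had 17.0, 16.4 and 15.9 CPM in brain, against 31896, 17630.4 and 27103 CPM in muscle. All muscle libraries stood far above all brain libraries for these genes, with log2 differences of -12.85 ± 0.92 for ACTA1, -5.37 ± 0.47 for ALDOA and -10.60 ± 0.46 for TPM2 (BH adjusted p at most 3.97e-06, edgeR).

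Of the genes higher in brain by at least 5 on the log2 scale, NRGN, S100B, KIF1A and PTGDS were among the 12 with the highest mean levels there. NRGN, a calmodulin-binding protein of dendritic spines (chromosome 29, 28218789 to 28225780 on the plus strand), had 2323, 2199.8 and 1022 CPM in brain, against 1.26, 1.15 and 1.38 CPM in muscle. KIF1A, a motor that carries vesicle precursors along axons, had 1609, 2015 and 1112 CPM in brain, against 1.5, 0.455 and 0.39 CPM in muscle. S100B, a calcium-binding protein of astrocytes, had 1750.3, 2422 and 1364 CPM in brain, against 45.8, 39.3 and 44.9 CPM in muscle. PTGDS, a prostaglandin synthase secreted into brain fluid, had 1619, 1781 and 726 CPM in brain, against 9.94, 18.8 and 9.38 CPM in muscle. The brain libraries lay above the muscle libraries for each, with differences of 10.51 ± 0.47 for NRGN, 11.01 ± 0.64 for KIF1A, 5.41 ± 0.30 for S100B and 6.76 ± 0.50 for PTGDS (BH adjusted p at most 4.98e-06, edgeR).

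The largest differences among well-expressed genes went beyond the top of the count lists. On the brain side were SEZ6L, a membrane protein of neurons, with 402, 387 and 326 CPM in brain, against 0.0300, 0.0240 and 0.104 CPM in muscle, and NRSN1, a vesicle protein of neurites, with 323, 421 and 155 CPM in brain, against 0.0901, 0.0719 and 0 CPM in muscle. BMERB1 averaged 149 ± 13.4 CPM in brain and 0.0353 ± 0.0147 CPM in muscle and SYT13, a synaptotagmin, 214 ± 42.4 CPM in brain and 0.0527 ± 0.0445 CPM in muscle. On the muscle side was UCP3, an uncoupling protein of mitochondria, with 0, 0.186 and 0.221 CPM in brain, against 1251, 2539 and 2204 CPM in muscle. The difference was 12.71 ± 0.36 (BH adjusted p = 5.08e-08, edgeR) for SEZ6L and -13.91 ± 0.83 (BH adjusted p = 1.38e-06, edgeR) for UCP3. The muscle counts of the brain genes came to a few reads per library. The brain counts of UCP3 were uneven, with none in brain A. A single read was worth 0.0185 CPM in brain B and 0.0170 CPM in brain C. Among the 12 named genes with most CPM and a difference of at least 5 on the log2 scale, levels in the higher tissue were 1208 to 1848 CPM on the brain side and 10575 to 84699 CPM on the muscle side.

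Many enzymes and channels came in a brain form and a muscle form. Among 34 gene pairs that could be compared, 26 had one form called higher in brain and the other called higher in muscle. Of all genes, 33.9% and 25.3% were called in these directions. Most pairs were relatives, but CALR with CASQ1 and ELAVL4 with MBNL1 join separate families listed together by role. Both of these pairs are among the 26. In 5 pairs the muscle form alone was called, in 2 both forms were higher in muscle and in 1 both were higher in brain. The pairs were picked for known tissue forms, so the count describes them and no more. Reads shared by related genes can be counted to the wrong member, and how the authors treated reads with several placements is not stated. A gene on the opposite strand overlaps an exon of ACACA, ATP2A1, CERS2, CKB, CKMT1A, COX6A2, COX8B, ENO3, HK1, MYH7, PFKP, PMCH, PRNP and SLC2A4, and since no source says that counting used strand, the values of these genes may include reads of their neighbours.

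Enolase, which makes phosphoenolpyruvate in glycolysis, parted almost completely. ENO2, the neuronal form (chromosome 5, 103538156 to 103547189 on the minus strand), had 572, 532 and 480.0 CPM in brain, against 0.270, 0.575 and 0.286 CPM in muscle. ENO3, the muscle form (chromosome 19, 26437553 to 26447840 on the minus strand), had 2.46, 3.97 and 3.18 CPM in brain, against 3553, 6885 and 5739 CPM in muscle. Per kilobase of exon, ENO2 made up 99.3% of the pair in brain and 0.00603% in muscle. Creatine kinase, which recharges ATP from phosphocreatine, parted as sharply, with CKB at 99.9% of CKB and CKM in brain and 0.0344% in muscle. The sum of that pair per kilobase was 634 CPM in brain and 6826 CPM in muscle. Their mitochondrial relatives CKMT1A and CKMT2 differed by 9.34 ± 0.27 (BH adjusted p = 5.17e-08, edgeR) for CKMT1A and -8.87 ± 0.50 (BH adjusted p = 9.55e-07, edgeR) for CKMT2.

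Other pairs left a sizeable share of the muscle form in brain. PFKM, the muscle phosphofructokinase, averaged 290.3 ± 6.86 CPM in brain and 3037 ± 1346 CPM in muscle. Its relative PFKP made up 23.8% ± 2.73 of the pair in brain and 0.340% ± 0.151 in muscle. ALDOC held 64.2% of ALDOC and ALDOA per kilobase in brain, and PYGB held 63.0% of the glycogen phosphorylases PYGB and PYGM there. SLC25A5, which exchanges ADP and ATP across the mitochondrial membrane, held 36.3% against SLC25A4 in brain and 0.258% in muscle. In these 4 pairs the brain form was called higher in brain and its partner higher in muscle, although PFKP and SLC25A5 were the smaller part of their pair in both tissues.

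In other pairs a sizeable share of the brain form was found in muscle. COX8A, a cytochrome oxidase subunit, held 99.98% of COX8A and COX8B in brain and 45.4% ± 4.73 in muscle. HK1, the hexokinase of brain, held 99.7% of HK1 and HK2 in brain and 12.9% ± 4.26 in muscle. By contrast, RYR2 held 87.6% of the calcium release channels RYR2 and RYR1 in brain and 0.0390% in muscle, and there RYR1 was nearly alone. The glucose carriers differed as well. SLC2A1, the carrier of barrier vessels and glia, had 201, 234 and 99.3 CPM in brain, against 10.6, 4.36 and 8.47 CPM in muscle. SLC2A4, the insulin-dependent carrier, had 1.17, 1.5 and 0.918 CPM in brain, against 305, 316 and 377 CPM in muscle. The differences were 4.51 ± 0.44 (BH adjusted p = 2.45e-05, edgeR) for SLC2A1 and -8.12 ± 0.26 (BH adjusted p = 6.86e-08, edgeR) for SLC2A4.

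Where only the muscle form was called, the other gene missed the call. RPL3, a core ribosomal protein, averaged 155 ± 15.0 CPM in brain and 134 ± 46.1 CPM in muscle. RPL3L, its relative in striated muscle, averaged 1.54 ± 0.252 CPM in brain and 366 ± 74.5 CPM in muscle and differed by -7.89 ± 0.27 (BH adjusted p = 8.57e-08, edgeR). EEF1A1, ACTN1, PDK2 and SLC16A7 were not called either, at 0.77 ± 0.26 for EEF1A1, 0.82 ± 0.17 for ACTN1, -0.26 ± 0.17 for PDK2 and 0.50 ± 0.37 for SLC16A7. Of these, EEF1A1, ACTN1 and SLC16A7 were called higher in brain with totals alone. Their partners EEF1A2, ACTN2, PDK4 and SLC16A3 were higher in muscle. EEF1A2 is not a form of muscle alone. Per kilobase, EEF1A1 held 31.8% ± 4.72 of EEF1A1 and EEF1A2 in brain and 7.54% ± 1.92 in muscle. EEF1A2 was thus the larger part of the pair in both tissues. Both calcium pumps of the reticulum were higher in muscle, ATP2A1 at -11.51 ± 0.44 and ATP2A2 at -2.56 ± 0.46.

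**Figure D3:**
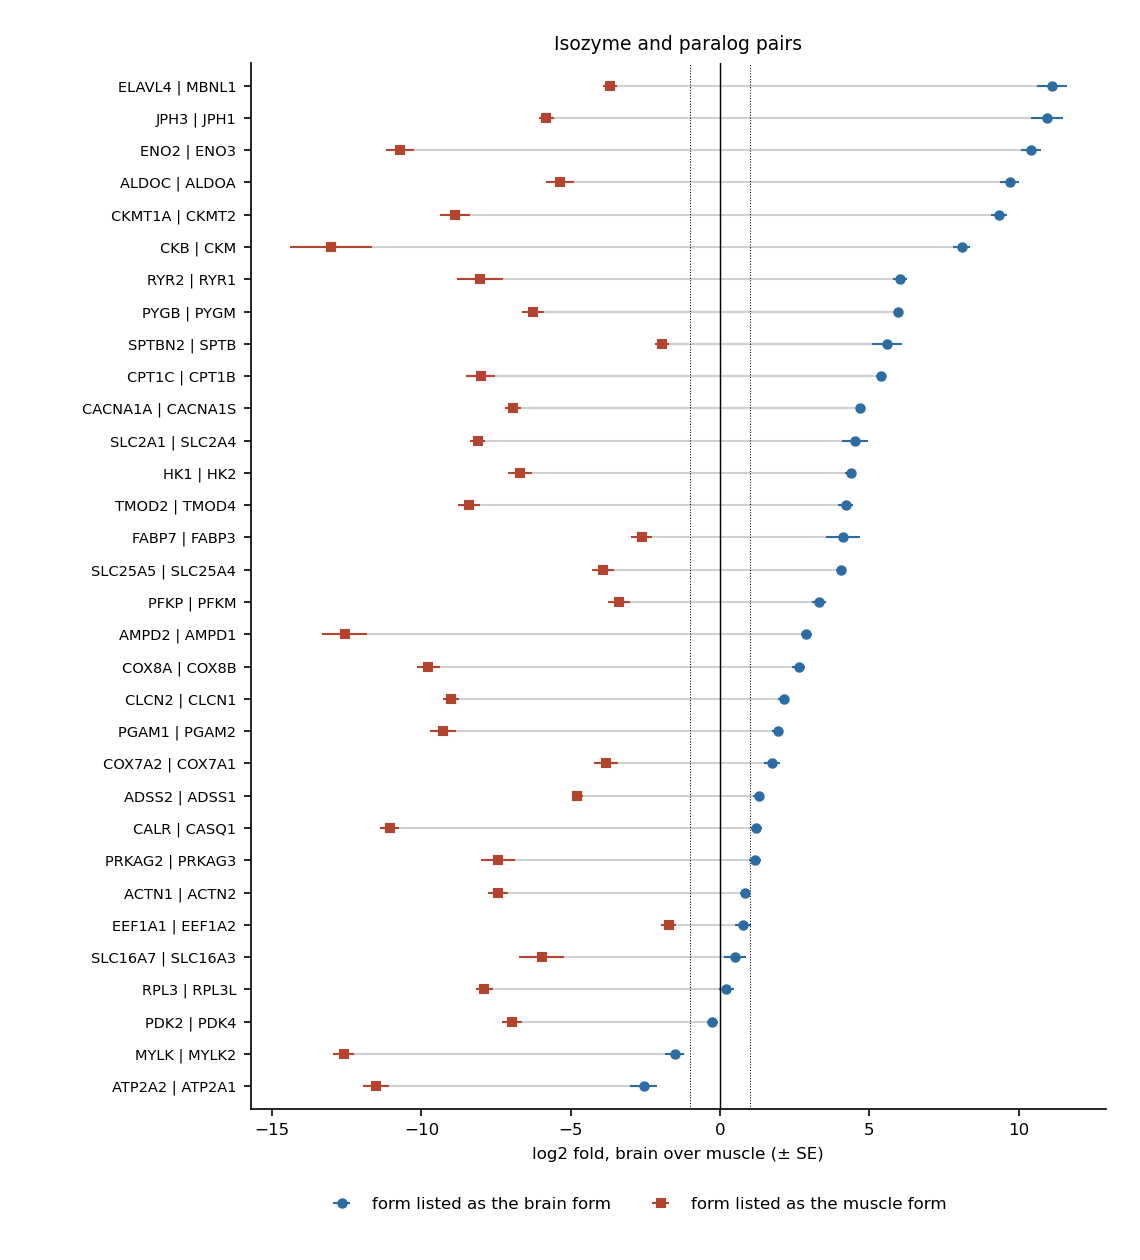
Each row is a pair of genes listed as a brain form and a muscle form, with the log2 difference of brain over muscle on the x axis. The form listed for brain is a blue circle and the form listed for muscle a red square. Bars give standard errors (n = 3 libraries per tissue), and dotted lines lie at 2-fold. In 25 of the 32 rows the circle lies to the right and the square to the left of the dotted lines.

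The muscle libraries were not alike in fibre type. Muscle A carried most of the slow forms and muscle B most of the fast forms, with muscle C between them for most genes. MYH1, the heavy chain of fast IIx fibres (chromosome 19, 29483027 to 29507056 on the minus strand), had 0.892, 3.82 and 3.31 CPM in brain, against 2256, 33394 and 14332 CPM in muscle. MYH7, the heavy chain of slow fibres, had 12, 15.1 and 16.8 CPM in brain, against 22585, 9438 and 10534 CPM in muscle. MYH2, the chain of fast IIa fibres, had 0.123, 2.04 and 1.67 CPM in brain, against 17588, 9611 and 9022 CPM in muscle. Per kilobase, MYH7 made up 53.8, 18.3 and 31.5% of the sarcomeric heavy chains in muscle A, B and C. The share of MYH2 was 40.8, 18.1 and 26.3% and that of MYH1 5.28, 63.6 and 42.2%, so the share of MYH2 ranked the libraries as that of MYH7 did. MYH4, the fast IIb chain, averaged 1.96 CPM in brain and 1.28 CPM in muscle, near 0 beside the other chains in muscle.

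Other fibre proteins ranked the libraries alike. Of 10 slow-fibre genes 9 were highest in muscle A and 9 lowest in muscle B, and of 11 fast-fibre genes 10 were lowest in muscle A and 10 highest in muscle B. MYH2, given above with the heavy chains, is not among the 11. TNNI1, the slow troponin I, was 67.3, 24.6 and 42.1% of TNNI1 and TNNI2 per kilobase in muscle A, B and C. TNNT1, the slow troponin T, was 41.2, 10.5 and 22.7% of TNNT1 and TNNT3. LDHB, the lactate dehydrogenase of oxidative tissue, was 24.5, 2.68 and 8.16% of LDHA and LDHB. The 3 shares fell in the same order, A over C over B. MYL6B, a light chain of slow fibres, had 1820.1, 123 and 662 CPM in muscle, and SLC16A3, which exports lactate, 15.1, 114 and 121 CPM. These genes were chosen after their values were seen, and 3 libraries allow no test of the order. Summed fibroblast markers also differed, at 432, 1389 and 813 CPM in muscle A, B and C, and their part in the order was not tested.

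**Figure D4:**
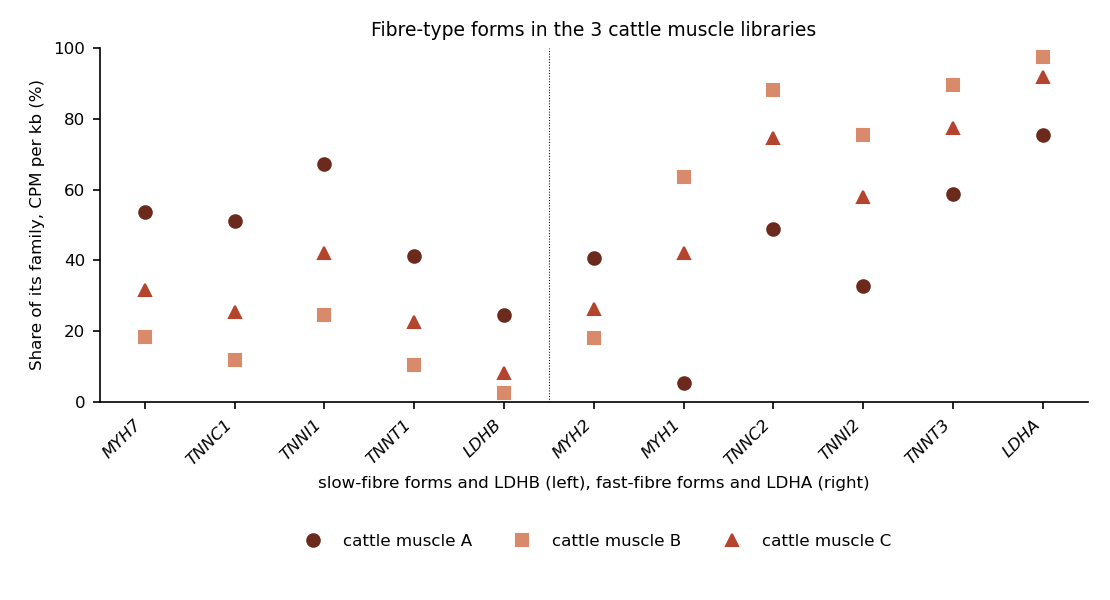
For 11 genes on the x axis, the y axis gives the percent that each made up of its family (sarcomeric myosin heavy chains, troponins C, I and T, lactate dehydrogenases), from CPM per kilobase, with 1 symbol per muscle library. The slow forms on the left are highest in muscle A and lowest in muscle B, and the fast forms other than MYH2 run the other way. In the troponins and lactate dehydrogenases, the share on the right is what the form on the left leaves. Its reverse order is thus fixed by that form.

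Against brain, the heavy chains were called in spite of that spread, with wide errors for the fast ones. MYH1 differed by -12.61 ± 1.36 (BH adjusted p = 4.85e-05, edgeR), MYH2 by -13.23 ± 1.14 (BH adjusted p = 1.20e-05, edgeR) and MYH7 by -9.92 ± 0.56 (BH adjusted p = 9.92e-07, edgeR). LDHB was not called, at 0.47 ± 0.45 (BH adjusted p = 0.361, edgeR), and was called higher in brain without muscle A (1.19) and with totals alone (1.13). ACTC1, the actin of heart and of immature skeletal muscle, had 0.233, 0.223 and 0.357 CPM in brain, against 120.5, 371 and 1198 CPM in muscle. SCN4B, a sodium channel subunit, had 79.2, 49.2 and 21.9 CPM in brain, against 286, 309 and 44.4 CPM in muscle, a difference of -2.09 ± 0.70 (BH adjusted p = 0.0242, edgeR). Its call was lost without brain B, brain C, muscle A or muscle B and with limma-voom, no filter, totals alone or glmTreat, which tests against the 2-fold limit itself.

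Genes that mark position along the body separated the tissues almost without overlap. HOX genes, which pattern the trunk, limbs and hindbrain in the embryo, were found in muscle and nearly silent in brain. Of 34 HOX genes with a symbol 21 had enough counts to test, all through muscle, so each of them had to differ. In brain, 22 of the 34 had 0 counts in every library and none had more than 12 counts over the 3 libraries. HOXC10 (chromosome 5, 26042341 to 26047427 on the minus strand) had 0 CPM in brain, against 35.7, 94.6 and 79.0 CPM in muscle, at least 4456-fold higher in muscle with 3 counts over the brain libraries as the floor. HOXC9 had 0 CPM in brain, against 18.7, 19.4 and 19.7 CPM in muscle, at least 1194-fold higher in muscle. HOXD8 had 0.0137, 0.0371 and 0.0170 CPM in brain, against 45.5, 56.0 and 48.8 CPM in muscle. The muscle libraries lay far above the brain libraries for all of these, and their own spread was small beside that gap.

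In muscle, the 10 HOX genes at 10 CPM or more had paralog numbers from 3 to 10, numbers that follow gene order in the clusters. The 9 HOX genes numbered 11 to 13 averaged at most 0.630 CPM there. HOXA10 averaged 0.00457 ± 0.00792 CPM in brain and 15.5 ± 0.470 CPM in muscle, whereas HOXA11, the next in its cluster, averaged 0 CPM in brain and 0.196 CPM in muscle. HOXC10 averaged 0 CPM in brain and 69.7 CPM in muscle, and HOXC11, the next in its cluster, 0 CPM in brain and 0.212 CPM in muscle. In the D cluster the step lay between HOXD9, which averaged 0 CPM in brain and 28.8 CPM in muscle, and HOXD10, which averaged 0 CPM in brain and 0.0966 CPM in muscle. Of 17 tested genes listed for limb and trunk position, HOX genes included, all 17 were higher in muscle, having passed the filter mostly through muscle, with a median of -10.95, or -8.82 with genes at 0 at their bound. TBX15, a T-box factor of trunk and limb, had 0.220, 0.297 and 0.391 CPM in brain, against 246, 319 and 211 CPM in muscle. PITX1, a hindlimb regulator, averaged 0.0108 CPM in brain and 1.5 CPM in muscle. TBX4 and TBX5, regulators of hindlimb and forelimb, were near 0 in both tissues, TBX4 at 0.0108 CPM in brain and 0.00799 CPM in muscle and TBX5 at 0.0715 CPM in brain and 0 CPM in muscle.

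Brain showed regulators of the forebrain. All 18 tested regulators of the telencephalon, the forebrain part that forms the cerebral cortex and striatum, were higher in brain, having passed the filter mostly through brain, so that most of them had to differ. Their median was 8.42. TBR1, of deep cortical projection neurons (chromosome 2, 34958624 to 34968526 on the minus strand), had 53.7, 40.4 and 35.2 CPM in brain, against 0.0601, 0.312 and 0.182 CPM in muscle. DLX1, of inhibitory neurons, had 14.9, 16.5 and 12.4 CPM in brain, against 0 CPM in muscle, at least 551-fold higher in brain. The lowest brain library stood far above the highest muscle library for each, with a difference of 7.79 ± 0.39 (BH adjusted p = 5.14e-07, edgeR) for TBR1.

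Genes listed for regions further back were split between the tissues. The diencephalon is the forebrain part that forms the thalamus and hypothalamus. Of its 15 listed regulators with a symbol only 5 had enough counts to test, and 2 were called higher in brain and 2 in muscle. The lists of this paragraph compare with 33.9% higher in brain and 25.3% higher in muscle over all genes tested. Of 23 genes with a symbol listed for midbrain, cerebellum and hindbrain, 14 could be tested. Among these, 4 were higher in brain and 7 higher in muscle, 5 of the 7 being HOX genes. The 4 were PAX5, GBX2, NEUROD1 and CBLN1, of which CBLN1, a synapse organiser of the cerebellum, had 3.03, 4.08 and 5.30 CPM in brain, against 0 CPM in muscle. EN1, of the midbrain border and the ventral limb, had 0 CPM in brain, against 12.6, 8.03 and 5.72 CPM in muscle, at least 531-fold higher in muscle. ZIC1, of the cerebellum and dorsal trunk, had 3.18, 3.75 and 1.04 CPM in brain, against 42.5, 48.1 and 25.9 CPM in muscle. GABRA6, a receptor subunit of cerebellar granule cells, averaged 0.0498 CPM in brain and 0 CPM in muscle, and EN2 0.0436 CPM in brain and 0.173 CPM in muscle. GABRA6 and EN2 were thus at the level of a few reads per library in brain. Among striatal genes 9 of 11 tested were higher in brain, with PPP1R1B, a dopamine-regulated phosphatase inhibitor, at 71.8, 88.1 and 55.8 CPM in brain, against 3.03, 2.57 and 2.94 CPM in muscle. DRD1, a dopamine receptor, averaged 5.39 CPM in brain and 0.01 CPM in muscle, and ADORA2A, an adenosine receptor of striatal neurons that was not called, 1.5 CPM in brain and 1.72 CPM in muscle. CHAT, which makes acetylcholine, averaged 0.0170 CPM in brain and 0 CPM in muscle, and TPH2, which makes serotonin, 0.0307 CPM in brain and 0.01 CPM in muscle. No brain region was inferred from these levels.

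**Figure D5:**
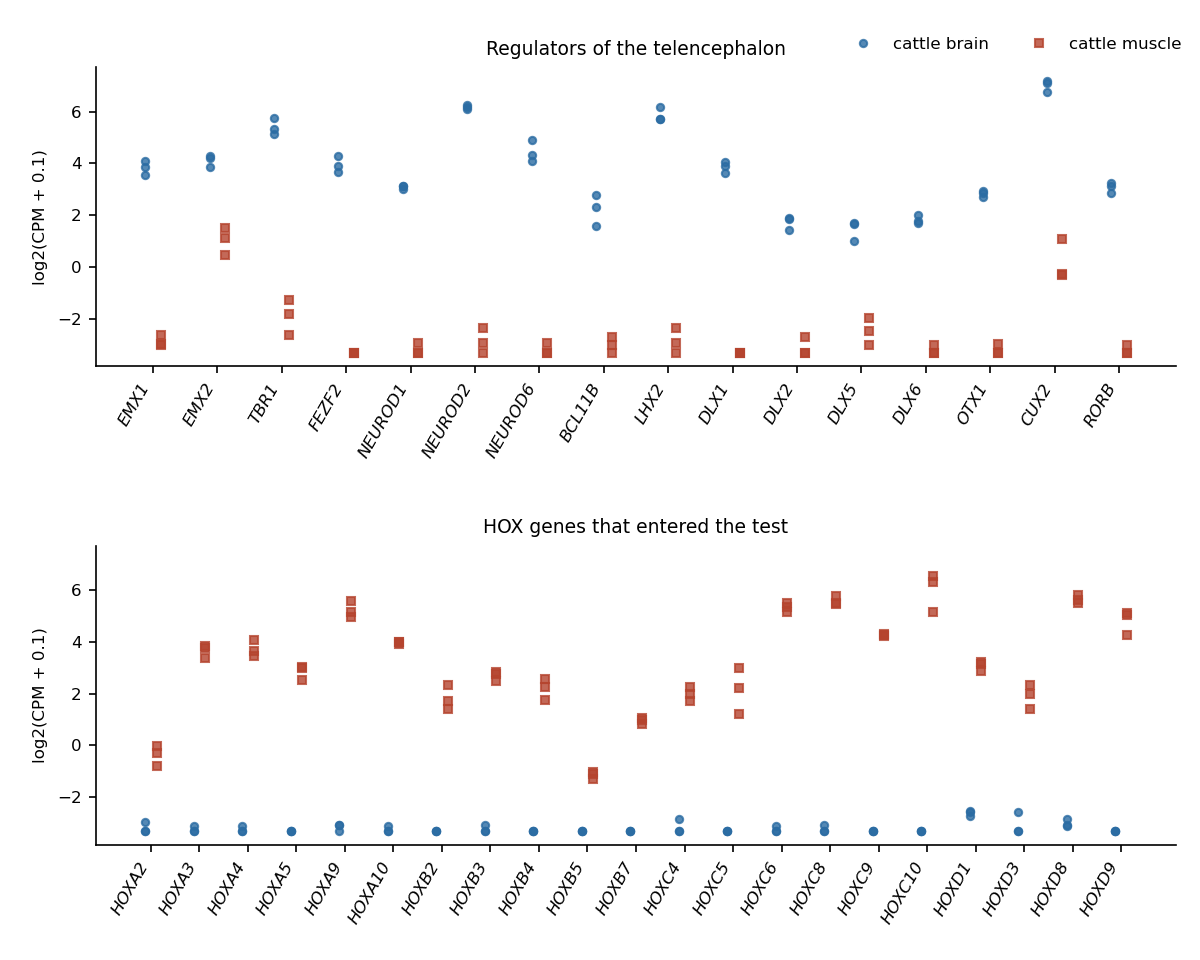
Levels as log2(CPM + 0.1) on the y axis for each brain library (blue circles) and muscle library (red squares), for 16 of the tested regulators of the telencephalon (upper panel) and the 21 tested HOX genes (lower panel). The circles lie above the squares for every gene of the upper panel and below them for every gene of the lower panel.

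Genes of the synapse were nearly all higher in brain. In synaptic vesicle release 28 of 28 tested members were higher there, with a median of 8.75. CPLX2, a complexin that holds vesicles ready for fusion, had 558, 619.9 and 345 CPM in brain, against 0.0300, 0.0479 and 0.156 CPM in muscle. UNC13A, which primes vesicles, had 125, 108 and 103 CPM in brain, against 0.0300, 0 and 0.0520 CPM in muscle. Both CPLX2 and UNC13A passed the filter through brain alone, so they had to differ. VAMP2, the vesicle SNARE, was less exclusive, with 996, 975 and 857 CPM in brain, against 179, 168 and 193 CPM in muscle and a difference of 2.39 ± 0.18 (BH adjusted p = 4.78e-06, edgeR). SLC17A7, the glutamate carrier of cortical vesicles, averaged 706 ± 19.3 CPM in brain and 0.192 ± 0.0431 CPM in muscle and made up 96.5, 97.2 and 95.4% of the vesicular glutamate carriers per kilobase in brain A, B and C.

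Receptors followed on the same side. Of 32 tested glutamate receptors and scaffolds 30 were higher in brain and none in muscle, with a median of 7.93, or 7.75 with genes at 0 at their bound. GRIN1, the shared NMDA receptor subunit, had 150.3, 113 and 111 CPM in brain, against 0.0601, 0 and 0.0520 CPM in muscle. GRIA2, the AMPA receptor subunit that limits calcium entry, had 215, 210.3 and 351 CPM in brain, against 0.0300, 0.120 and 0.0780 CPM in muscle. SHANK1, a postsynaptic scaffold, had 518, 640.1 and 309 CPM in brain, against 0.120, 0.168 and 0.156 CPM in muscle. GRIN1, GRIA2 and SHANK1 passed the filter through brain alone, so they had to differ. HOMER1 and CAMK2B were not called, and muscle libraries also held them. HOMER1, a scaffold, averaged 102 CPM in brain and 119.9 CPM in muscle, and CAMK2B, a calcium-dependent kinase, 417 CPM in brain and 212 CPM in muscle, where CAMK2B was called higher in brain with totals alone, with no filter and without brain B, brain C or muscle A.

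For inhibition by GABA and glycine, 25 of 26 tested genes were higher in brain. GAD1, which makes GABA, had 132, 122 and 91.7 CPM in brain, against 0.0300, 0.0479 and 0.0260 CPM in muscle. It passed the filter through brain alone, so it had to differ. GPHN, the scaffold of inhibitory synapses, was not called, at 27.3 CPM in brain and 15.3 CPM in muscle, and was called higher in brain with totals alone. Muscle held more than traces of ABAT, which breaks GABA down, with 346, 341 and 260.3 CPM in brain, against 11.3, 21.1 and 33.7 CPM in muscle.

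Neuropeptides and granins were higher in brain for 26 of 27 tested members. SST, somatostatin of inhibitory interneurons, had 127, 155 and 133 CPM in brain, against 0, 0.0959 and 0.0520 CPM in muscle. CCK, cholecystokinin, had 126, 134 and 145 CPM in brain, against 0.0601, 0.144 and 0.104 CPM in muscle. VIP, of another interneuron class, had 24.6, 29.2 and 16.4 CPM in brain, against 0 CPM in muscle, at least 883-fold higher in brain. SST, CCK and VIP passed the filter through brain alone, so each had to differ. HCRT, OXT and PMCH, peptides of hypothalamic neurons, were near 0 in both tissues, with HCRT at 0.00457 CPM in brain and 0.00866 CPM in muscle, OXT at 0.115 CPM in brain and 0.121 CPM in muscle and PMCH at 0.210 CPM in brain and 0.199 CPM in muscle, and none of the 3 could be tested. POMC, the precursor of melanocortins and endorphin, was not called, with 12.9, 13.5 and 9.36 CPM in brain, against 19.4, 12.6 and 22.9 CPM in muscle.

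Transmitter systems with cell bodies in a few nuclei gave a mixed list. Of 21 tested genes of monoamine and acetylcholine signalling 13 were called higher in brain and 3 higher in muscle. CHRM1, a muscarinic receptor of cortex, had 114, 108 and 93.7 CPM in brain, against 0.0300, 0 and 0.0260 CPM in muscle. The brain libraries stood far above the muscle libraries for CHRM1, at 12.35 ± 0.34 (BH adjusted p = 4.81e-08, edgeR). TH, the first enzyme of dopamine synthesis, was not called, with 1.81, 2.67 and 3.23 CPM in brain, against 1.62, 2.73 and 1.14 CPM in muscle, and was called higher in brain with totals alone. MAOA, which breaks monoamines down, averaged 44.8 CPM in brain and 45.6 CPM in muscle.

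Genes of axons and their contacts were mostly higher in brain. In the axon and dendrite cytoskeleton 26 of 28 tested genes were higher in brain, and in axon guidance and adhesion 33 of 34. NEFL, the light neurofilament, had 472, 345 and 422 CPM in brain, against 0.150, 0.120 and 0.104 CPM in muscle. CRMP1, a microtubule regulator of growing axons, had 346, 337 and 280.0 CPM in brain, against 0.0901, 0.0719 and 0.130 CPM in muscle. SEMA4D, a semaphorin, was the guidance gene higher in muscle, with 75.2, 70.1 and 93.5 CPM in brain, against 195, 194 and 145 CPM in muscle and a difference of -1.16 ± 0.18 (BH adjusted p = 4.72e-04, edgeR), a call lost with totals alone and with glmTreat. DPYSL3 and ANK3 were not called, at 0.45 ± 0.23 for DPYSL3 and 0.70 ± 0.24 for ANK3, and both were called higher in brain with totals alone.

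Excitability drew on different channels in each tissue. Of 45 tested sodium and potassium channel genes 32 were called higher in brain and 8 higher in muscle, beside 33.9% and 25.3% over all genes tested. SCN2A, a sodium channel of excitatory neurons, had 232, 212 and 293 CPM in brain, against 0.120, 0.0959 and 0.104 CPM in muscle. SCN4A, the sodium channel of muscle, had 0.0686, 0.186 and 0.170 CPM in brain, against 156, 205 and 143 CPM in muscle. The channels of neurons and muscle thus stood at opposite ends, at 11.14 ± 0.28 (BH adjusted p = 4.19e-08, edgeR) for SCN2A and -10.24 ± 0.35 (BH adjusted p = 8.07e-08, edgeR) for SCN4A. KCNJ2 and KCNJ12, inward rectifiers that hold the resting potential, were higher in muscle, at -2.00 ± 0.18 for KCNJ2 and -2.81 ± 0.20 for KCNJ12.

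Glial genes were also on the brain side. Astrocyte transport and metabolism had 21 of 24 tested members higher in brain, and myelin and its lipids 21 of 23. SLC14A1, a urea carrier of astrocytes, had 94.8, 79.1 and 148 CPM in brain, against 0, 0.0479 and 0.104 CPM in muscle. KCNJ10, which clears potassium, had 210.3, 183 and 109.6 CPM in brain, against 0.361, 0.264 and 0.286 CPM in muscle. OPALIN, a membrane protein of oligodendrocytes, had 39.0, 42.9 and 52.3 CPM in brain, against 0 CPM in muscle, at least 1677-fold higher in brain. GLUL, glutamine synthetase, often taken as an astrocyte gene, was not called and stood high in both tissues, with 2685, 2564 and 1683 CPM in brain, against 2385, 2462 and 3977 CPM in muscle. CERS2, which makes the long-chain ceramides of myelin, was not called, with 41.6, 41.1 and 32.9 CPM in brain, against 39.7, 35.2 and 36.4 CPM in muscle.

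Vessels of the brain barrier carried their own genes. Of 13 tested 10 were called higher in brain and 1 higher in muscle. MFSD2A, which carries omega-3 lipids into brain, had 35.5, 44.0 and 23.2 CPM in brain, against 0.150, 0.120 and 0.0780 CPM in muscle. SLC16A1, a lactate carrier, was the member higher in muscle, with 17.2, 16.2 and 13 CPM in brain, against 134, 66.8 and 90.2 CPM in muscle. CLDN5, the tight junction protein of brain endothelium, had 45.5, 67.5 and 16.9 CPM in brain, against 10.8, 10.9 and 13.3 CPM in muscle, so brain C lay only just above the muscle libraries. Summed endothelial markers were also lowest in brain C, at 249, 274 and 98.1 CPM in brain, against 283, 279.8 and 322 CPM in muscle, and their part in the list was not tested. Without brain C the endothelial markers gave the same calls, 1 higher in brain and 2 higher in muscle of 5, whereas totals alone gave 2 in brain and none in muscle.

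Matrix genes split by tissue. Of 17 tested perineuronal and brain matrix genes 15 were higher in brain, NCAN, a neural proteoglycan, at 12.09 ± 0.27 (BH adjusted p = 4.19e-08, edgeR). Of 32 tested matrix genes of muscle and vessels 25 were higher in muscle, COL6A3, a collagen around fibres, at -7.17 ± 0.48 (BH adjusted p = 2.58e-06, edgeR). SPARC, PRELP and TIMP2 of that list were higher in brain, SPARC, a matrix-binding glycoprotein, with 1419, 1858 and 1057 CPM in brain, against 353, 557 and 491 CPM in muscle. VCAN, a large proteoglycan, was the brain matrix gene higher in muscle, with 16.7, 14.6 and 10.9 CPM in brain, against 20.5, 81.2 and 48.6 CPM in muscle. The summed matrix list ran with the fibroblast markers in muscle, both lowest in muscle A and highest in muscle B. Both lists hold DCN, which averaged 364 CPM in muscle, so their like order is partly built in.

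The contractile apparatus lay on the muscle side. All 16 tested thin filament genes, 17 of 19 thick filament genes, 26 of 28 genes of the Z-disc and costamere and 21 of 25 genes of excitation-contraction coupling were higher in muscle, and none of them in brain. XIRP1, which binds actin at sites of repair, had 0.0274, 0.260 and 0.153 CPM in brain, against 1445, 1902 and 1907 CPM in muscle. MYOT, a Z-disc protein, had 0, 1.24 and 1.5 CPM in brain, against 9347, 8684 and 6939 CPM in muscle. JSRP1, a partner of the calcium release channel, had 0.0274, 0.0371 and 0.0680 CPM in brain, against 373, 511 and 469.6 CPM in muscle. Brain held only traces of these 3 genes. CACNG1, a subunit of the muscle calcium channel, had 0 CPM in brain, against 118, 104 and 82.0 CPM in muscle, at least 6237-fold higher in muscle. RYR3, CACNB1, CACNA2D1 and MTM1 were the coupling genes not called, at -0.24 for RYR3, -0.26 for CACNB1, -0.74 for CACNA2D1 and 0.04 for MTM1. TCAP, a Z-disc gene, had 0 counts in all 6 libraries. COX6A2, a muscle subunit of cytochrome oxidase, averaged 0 CPM in brain and 0.0200 CPM in muscle, and neither value was read as absence of the gene's RNA.

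Regulators of the muscle programme were still present in the adult tissue. Of 24 tested 20 were higher in muscle and none in brain. MYF6, the myogenic factor that adult fibres keep, had 0.233, 0.612 and 0.765 CPM in brain, against 441, 403 and 1209.7 CPM in muscle. MYOG averaged 0.107 CPM in brain and 85.9 CPM in muscle, and MYOD1 0.144 CPM in brain and 21.9 CPM in muscle. MEF2A and MEF2C, used by neurons and muscle, were not called, at -0.32 ± 0.17 for MEF2A and 0.44 ± 0.23 for MEF2C, whereas MEF2D was higher in muscle at -1.95 ± 0.21 (BH adjusted p = 4.30e-05, edgeR). PPARGC1A, which drives mitochondrial growth, was not called either, with 38, 31.9 and 32.5 CPM in brain, against 33.3, 14.0 and 21.8 CPM in muscle. With totals alone, MEF2C and PPARGC1A were called higher in brain.

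Genes of growth, atrophy and meat tenderness were higher in muscle for 15 of 27 tested and in brain for none. CAPN3, the muscle calpain, had 3.53, 2.10 and 6.15 CPM in brain, against 508, 719 and 522 CPM in muscle. CAST, the inhibitor of the common calpains, had 60.8, 53.2 and 56.6 CPM in brain, against 290.3, 235 and 252 CPM in muscle. CAPN1 and CAPN2, the common calpains that act on meat after slaughter, were not called, at -0.16 ± 0.13 for CAPN1 and -0.73 ± 0.20 for CAPN2. CAPN3 and CAST were thus called and the common calpains were not. MSTN, myostatin, which limits muscle growth, was low and not called, with 0.274, 0.223 and 0.629 CPM in brain, against 1.23, 2.06 and 0.260 CPM in muscle, and was called higher in muscle with DESeq2 and without brain C or muscle C.

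The endplate, where nerve meets fibre, held genes of both kinds. CHRNA1, the acetylcholine receptor subunit of muscle, had 0.0412, 0.0371 and 0.221 CPM in brain, against 173, 94.1 and 97.9 CPM in muscle. RAPSN, which clusters receptors, had 1.34, 0.816 and 0.867 CPM in brain, against 94.6, 74.2 and 102 CPM in muscle. AGRN, the nerve-derived clustering signal, was higher in brain, at 2.39 ± 0.22 (BH adjusted p = 1.71e-05, edgeR). Its kinase MUSK was higher in brain as well, with 12.1, 12.7 and 19.3 CPM in brain, against 2.31, 5.99 and 7.43 CPM in muscle, no overlap of the tissues and a difference of 1.48 ± 0.40 (BH adjusted p = 0.00899, edgeR), a call lost with glmTreat. LRP4, the agrin receptor, averaged 137 CPM in brain and 68.4 CPM in muscle, and its call as higher in brain was lost without brain B, muscle A or muscle C and with glmTreat or mitochondrial genes left out before scaling.

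Of 22 tested genes of fat storage 16 were higher in muscle and 3 in brain. CD36, which takes up fatty acids, had 0.206, 2.08 and 0.255 CPM in brain, against 432, 417 and 388 CPM in muscle. LPL, which frees fatty acids from blood lipids, had 5.05, 4.58 and 7.24 CPM in brain, against 439, 96.6 and 237 CPM in muscle. FASN, which builds fatty acids, had 303, 307 and 419.6 CPM in brain, against 29.8, 44.1 and 38.5 CPM in muscle. SCD, FASN and ACACA were the members higher in brain, at 2.25 ± 0.26 for SCD, 3.19 ± 0.22 for FASN and 2.10 ± 0.17 for ACACA (BH adjusted p at most 8.29e-05, edgeR). ACACA made up 83.4, 84.2 and 84.0% of ACACA and ACACB per kilobase in brain A, B and C, against 1.29, 1.84 and 1.40% in muscle A, B and C. ACACB, the form that restrains fatty acid oxidation, was the main one in muscle. Adipocyte markers summed to 11.5, 15.0 and 8.46 CPM in brain, against 20, 57.3 and 52.3 CPM in muscle, and their part in the list was not tested.

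Cholesterol synthesis was higher in brain, with 19 of 22 tested members and a median of 2.94. HMGCS1, which enters the pathway from acetyl-CoA, had 539, 512 and 612 CPM in brain, against 30.7, 33.3 and 24.9 CPM in muscle. CYP46A1, which turns brain cholesterol into a form that can leave, had 325, 373 and 249.9 CPM in brain, against 0.150, 0.288 and 0.312 CPM in muscle, a difference of 10.27 ± 0.33 (BH adjusted p = 6.40e-08, edgeR). MVK, FDPS and HSD17B7 of the same pathway were not called, at -0.20 for MVK, 0.78 for FDPS and 0.34 for HSD17B7, and FDPS and HSD17B7 were called higher in brain with totals alone.

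Energy metabolism lay mostly on the muscle side. In glycolysis 7 of 24 tested genes were called higher in brain and 15 higher in muscle. In the citric acid cycle 6 of 29 were called higher in brain and 19 higher in muscle, or 14 in muscle with totals alone. Among nuclear genes of the respiratory chain 2 of 38 were called higher in brain and 34 higher in muscle, or 21 in muscle with totals alone. In fatty acid oxidation 3 of 24 were called higher in brain and 12 higher in muscle.

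Members that went against these lists were often tissue forms. OGDHL, a relative of a citric acid cycle enzyme, had 56.0, 45.7 and 52.7 CPM in brain, against 0.120, 0.0479 and 0.0520 CPM in muscle. CPT1C, a brain relative of the fatty acid gate of mitochondria, averaged 77.5 ± 4.51 CPM in brain and 1.86 ± 0.289 CPM in muscle. COX7A2 and COX8A were the respiratory chain genes higher in brain, at 1.73 ± 0.28 for COX7A2 and 2.63 ± 0.22 for COX8A. On the muscle side, PFKFB3, whose product speeds phosphofructokinase, averaged 44.1 ± 8.60 CPM in brain and 1336 ± 428 CPM in muscle. AMPD1, which removes the amino group of AMP, averaged 0.0628 ± 0.0932 CPM in brain and 379.8 ± 145 CPM in muscle. GYS1, which builds glycogen, had 43.0, 40.3 and 30.4 CPM in brain, against 499.5, 809 and 655 CPM in muscle. GBE1, which branches it, was not called, with 41.7, 33.9 and 32.6 CPM in brain, against 50.1, 26.4 and 42.2 CPM in muscle.

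Amino acid and ketone handling split within a list. Of 25 tested genes 10 were called higher in brain and 5 higher in muscle. PHGDH, which starts serine synthesis, had 127, 134 and 101 CPM in brain, against 0.841, 1.05 and 0.39 CPM in muscle, a difference of 7.30 ± 0.34 (BH adjusted p = 3.50e-07, edgeR). OXCT1, which burns ketones, had 8.42, 8.44 and 7.43 CPM in brain, against 125, 83.1 and 91.7 CPM in muscle, a difference of -3.63 ± 0.20 (BH adjusted p = 8.19e-07, edgeR). GLUD1, glutamate dehydrogenase, was higher in brain, with 474, 533 and 397 CPM in brain, against 119, 98.4 and 108 CPM in muscle. Carriers split likewise, 11 of 24 being higher in brain and 9 in muscle, beside 33.9% and 25.3% over all genes tested. SLC7A5, a carrier of leucine and other large neutral amino acids, had 127, 174 and 89.8 CPM in brain, against 5.35, 4.41 and 5.02 CPM in muscle. SLC7A8, which carries similar amino acids, had 52.3, 49.6 and 48.1 CPM in brain, against 353, 884 and 821 CPM in muscle.

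Genes of protein synthesis and breakdown were modestly higher in muscle, and many of those calls were lost with totals alone. Of 50 tested cytosolic ribosomal proteins 44 were higher in muscle with a median of -1.35, and 13 with a median of -0.68 under totals alone. Of 34 proteasome genes 25 were higher in muscle with a median of -1.51, and 9 with a median of -0.83 under totals alone. RPLP1, of the ribosomal stalk, had 309, 360.2 and 265 CPM in brain, against 2107, 1721 and 2229.6 CPM in muscle. PSMA1, of the proteasome core, had 20.8, 21.2 and 21.7 CPM in brain, against 104, 94.7 and 116 CPM in muscle. Mitochondrial ribosomal proteins leaned the same way by their symbols, with 27 of 46 tested MRPL genes and 17 of 28 MRPS genes higher in muscle and none in brain. These were counted with TMM only, at medians of -1.16 for MRPL and -1.11 for MRPS.

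The small heat shock proteins HSPB6 and HSPB8 were higher in muscle. HSPB6, a form of muscle, had 65.6, 63.4 and 29.3 CPM in brain, against 4031, 3008 and 4554 CPM in muscle. HSPB8, which works with BAG3 in clearing damaged filaments, had 99.6, 108 and 82.6 CPM in brain, against 1506, 1878 and 1553 CPM in muscle. UNC45B, which folds myosin, averaged 0.0718 ± 0.0565 CPM in brain and 183 ± 41.3 CPM in muscle. DNAJC6, which strips clathrin from recycled vesicles, was the chaperone furthest to the brain side, at 10.09 ± 0.22 (BH adjusted p = 4.19e-08, edgeR). HSPA8, the main cytosolic chaperone, was not called, with 1283, 1200.0 and 1332 CPM in brain, against 1042, 1841 and 1129 CPM in muscle. In all, 4 of 32 tested chaperones were called higher in brain and 14 higher in muscle, or 8 and 12 with totals alone. With TMM, 33.9% and 25.3% of all genes tested were called in these directions.

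Of 30 tested tissue splicing and RNA-binding factors 18 were called higher in brain and 4 higher in muscle. ELAVL4, which stabilises neuronal RNAs, had 79.5, 72.1 and 98.4 CPM in brain, against 0, 0 and 0.104 CPM in muscle. CELF3, a splicing factor of neurons, had 291, 311 and 225 CPM in brain, against 0.120, 0.0240 and 0.130 CPM in muscle. SRRM4, which turns on neuronal microexons, had 14.4, 13.6 and 14.9 CPM in brain, against 0.0300, 0.0479 and 0.0780 CPM in muscle. The muscle side held MBNL1, RBM20, RBM24 and RBM38. MBNL1, a muscleblind factor, had 43.4, 33.3 and 54.8 CPM in brain, against 543, 637 and 509.6 CPM in muscle. RBM24, a splicing factor of striated muscle, had 8.30, 9.11 and 8.09 CPM in brain, against 404, 453 and 401 CPM in muscle. RBFOX2, PTBP1 and PTBP2 were not called, at 0.07 for RBFOX2, -0.54 for PTBP1 and 0.67 for PTBP2, and PTBP2 was called higher in brain with totals alone.

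Genes that answer quickly to stimuli did not move as a block. Of 29 tested immediate early genes 10 were called higher in brain and 16 higher in muscle, or 12 and 12 with totals alone. EGR3, a factor induced by synaptic activity, had 87.3, 76.3 and 50.2 CPM in brain, against 0.421, 0.863 and 0.572 CPM in muscle. ARC, which neuronal activity sends to dendrites, averaged 23.7 ± 11.4 CPM in brain and 0.179 ± 0.0334 CPM in muscle. FOS, the classic immediate early factor, had 20.1, 19.7 and 11 CPM in brain, against 66.0, 71.6 and 154 CPM in muscle. ATF3, a stress-induced factor, had 0.878, 0.891 and 0.833 CPM in brain, against 36.8, 42.3 and 41.9 CPM in muscle. The brain libraries lay above the muscle libraries for EGR3 and below them for FOS and ATF3. Time of sampling and delay before freezing are not known here, and their part in these levels was not tested. Of 19 clock genes 6 were called higher in brain and 6 higher in muscle with TMM, and 6 in brain and 2 in muscle with totals alone. TMM called 33.9% and 25.3% of all genes tested in these directions. PER1, a clock gene that also responds to stimuli, averaged 68.4 CPM in brain and 223 CPM in muscle, and DBP, a clock output, 19.3 CPM in brain and 2.40 CPM in muscle.

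In the list of prion, amyloid and tau genes 10 of 21 tested were called higher in brain and 3 higher in muscle, or 13 and 0 with totals alone. Over all genes tested the shares called were 33.9% and 25.3%. PRNP, the prion protein gene (chromosome 13, 47039699 to 47058759 on the plus strand), had 253, 238 and 276 CPM in brain, against 61.6, 64.6 and 66.6 CPM in muscle, a difference of 1.99 ± 0.14 (BH adjusted p = 4.00e-06, edgeR) with no overlap of the tissues. APP, the amyloid precursor, had 1254, 1225 and 1217 CPM in brain, against 125, 151 and 165 CPM in muscle. PINK1, a kinase that watches over mitochondria, was higher in muscle, with 215, 239 and 171 CPM in brain, against 556, 339 and 671 CPM in muscle, a call lost with totals alone and with glmTreat. Every muscle library held PRNP and APP.

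Hormone and metal genes gave smaller groups. Of 16 tested thyroid hormone genes 8 were called higher in brain and 3 higher in muscle. KLF9, a thyroid hormone target, averaged 68.3 ± 7.67 CPM in brain and 329 ± 113 CPM in muscle. In iron, copper and zinc handling 10 of 21 were called higher in brain and 5 higher in muscle. Both lists compare with 33.9% higher in brain and 25.3% higher in muscle over all genes tested. HJV, which steers iron hormone output in other mammals, had 0.165, 0.186 and 0.0680 CPM in brain, against 221, 257 and 187 CPM in muscle. MT3, the brain metallothionein, had 135, 171 and 134 CPM in brain, against 1.02, 0.479 and 1.27 CPM in muscle. The oxygen carriers parted as well, with MB, myoglobin, at -12.73 ± 0.78 (BH adjusted p = 1.57e-06, edgeR) and NGB, neuroglobin, at 6.22 ± 0.43 (BH adjusted p = 3.09e-06, edgeR).

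Immune and dividing-cell genes gave no lean to either tissue that held under both scalings. Antigen presentation and interferon had 5 of 22 tested genes higher in brain and 7 in muscle, and complement and microglial genes 7 of 22 in brain and 8 in muscle. Beside them, 33.9% and 25.3% of all genes tested were called in these directions. In cell division 3 of 22 were called higher in brain and 7 higher in muscle, against 9 and 0 with totals alone. The medians of these 3 lists changed sign between the scalings. B2M, of antigen-presenting complexes, had 26.6, 25.6 and 14.1 CPM in brain, against 95.6, 98.2 and 136 CPM in muscle. P2RY12, a receptor of microglia, had 31.8, 17.5 and 24.9 CPM in brain, against 0.0300, 0.120 and 0.208 CPM in muscle. CD163, a scavenger receptor of tissue macrophages, had 2.48, 1.37 and 2.99 CPM in brain, against 16.1, 23.2 and 18.3 CPM in muscle. CX3CR1 and P2RY12 were thus higher in brain, and CD163 and MRC1 higher in muscle. Microglial markers summed to 278, 154 and 184 CPM in brain, against 17.2, 39.9 and 31.5 CPM in muscle.

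Symbol families beyond the lists were grouped after the values were seen, for 70 symbol stems with at least 20 tested genes. GPR, the stem of orphan receptors, had 35 of 45 genes higher in brain and 2 in muscle. CFAP, genes of cilia and flagella, had 23 of 36 higher in brain and none in muscle. SLC, the solute carriers, had 148 of 293 higher in brain and 55 in muscle. On the muscle side, EIF, the translation initiation factors, had 3 of 51 higher in brain and 29 in muscle. Nucleoporins, NUP, had none of 22 higher in brain and 11 in muscle. Median differences were modest, at -1.14 for EIF and -0.95 for NUP. All stem counts used TMM and were not repeated with totals alone, where the median over all genes rose from 0.09 to 0.76. Zinc finger genes, ZNF, had 41 of 244 higher in brain and 64 in muscle. Shares over all genes tested were 33.9% and 25.3%, so the muscle share of ZNF lay near that of all genes and its brain share below it.

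Large genes were called higher in brain more often than small ones. Genes spanning 300 kb or more were higher in brain in 64.1% of 490 cases and higher in muscle in 11.2%, with a median difference of 2.71. For 5266 genes under 10 kb the shares were 31.7% in brain and 29.2% in muscle, with a median of -0.07. Median exonic length was closer, at 2472 bases for genes higher in brain and 2200 bases for genes higher in muscle, while median span was 26217 bases for brain and 17281 bases for muscle. Chromosomes 6 and X had the largest shares of genes higher in brain among the autosomes and X, 43.0% of 437 tested genes on chromosome 6 and 41.8% of 570 on X. These shares describe the tested genes and were given no test.

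Neighbouring genes called in 1 direction formed long runs, which were picked after their values were seen. The longest held 24 tested genes on chromosome 7, from 51894458 to 52598877, all higher in brain. None of the 24 carries a symbol here, and 7 RefSeq genes with a PCDH symbol in that stretch place it at the clustered protocadherins, adhesion proteins of neurons. Log2 differences went from 2.22 to 8.88 with a median of 4.66, and mean levels from 0.349 to 582 CPM in brain and from 0 to 43.6 CPM in muscle.

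Muscle had its longest runs at HOX clusters, with 12 genes on chromosome 4 from 68323940 to 68941279 (median -10.69) and 11 on chromosome 5 from 25855722 to 26378227 (median -9.49). On chromosome 20, from 42209780 to 56495596, a run of 9 genes higher in brain held the cadherins CDH6, CDH9, CDH10, CDH12 and CDH18. That run reached over 14286 kb with a median of 9.12. CDH10, an adhesion protein of neurons, had 36.0, 40.1 and 42.7 CPM in brain, against 0.0901, 0.0479 and 0.182 CPM in muscle.

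With TMM, genes at equal levels in both tissues included general ones. The 6 with most counts among named genes within 0.25 of 0 on the log2 scale were COX2 and ND3 of the mitochondrial genome, FTH1, HSPA8, YWHAG and RTN4. FTH1, the iron store ferritin, had 2724, 3578 and 2203 CPM in brain, against 2898, 1990.1 and 2394 CPM in muscle. YWHAG, a 14-3-3 adaptor, had 1037, 944 and 1093 CPM in brain, against 874, 1159 and 848 CPM in muscle. RTN4, a reticulum protein that limits axon growth, had 843, 746 and 915 CPM in brain, against 895, 762 and 661 CPM in muscle. With TMM, the libraries of the tissues overlapped for these 3 genes. The median difference over all genes tested was 0.09 with TMM and 0.76 with totals alone, so equality here depends on the scaling.

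Genes without a symbol made up 2462 of the genes tested, 906 of them higher in brain and 663 higher in muscle. Of those higher in brain, ENSBTAG00000043570 and ENSBTAG00000043567 had the most counts, 2939 ± 277 CPM in brain and 654 ± 140.3 CPM in muscle for ENSBTAG00000043570 and 1327 ± 166 CPM in brain and 324 ± 114 CPM in muscle for ENSBTAG00000043567. Both lie on the mitochondrial chromosome, where RefSeq has ribosomal RNA genes. Of those higher in muscle, ENSBTAG00000018513 averaged 101 ± 4.91 CPM in brain and 9742 ± 3241 CPM in muscle and ENSBTAG00000006434, on chromosome 6 from 6233764 to 6435034, 32 ± 8.27 CPM in brain and 2143 ± 134 CPM in muscle. No name or role was given to these.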

How the data were processed

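Per the labels, poly(A) RNA of frozen brain and muscle was sequenced. The authors deposited 1 table of read counts per library, with gene coordinates and exonic length. The submitters' processing notes name Trimmomatic 0.39, STAR 2.7.6, featureCounts and build ARS-UCD1.2, and strand and multi-mapping settings are not given in the labels or files. The 12 sheep and goat libraries were not used.

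Genes with low counts were dropped by filterByExpr, libraries were scaled by TMM, and brain was tested against muscle in edgeR 4.0.16 (quasi-likelihood test, R 4.3.3) with BH adjustment over all 16428 genes. Alternatives were RLE scaling, totals alone, no filter, DESeq2 1.42.0, limma-voom 3.58.1, glmTreat at a log2 fold of 1, a replicate block, mitochondrial genes left out, and each library left out. The fit was tested on simulated data. CPM in the text are TMM-scaled, and the floor for a group without counts is 3 counts over its libraries. The total of 40878387 to 58514630 counts per library limits the precision of low genes, where a single read was worth 0.0137 to 0.0300 CPM, and floors cover counting error only.

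Identifiers matched none in the RefSeq table, so 17199 symbols were assigned by position, 15943 by an overlap of at least 0.5 of the union of both gene models with no rival above 0.5 of it, and 1256 by at least 0.9 of the model lying inside 1 RefSeq gene. RefSeq coordinates belong to ARS-UCD2.0, and only names were taken. Positions printed are those of the deposited tables on ARS-UCD1.2. Some names may be wrong, and 30.3% of named genes have an identical start or end in both. No promoter or protein sequence was used here.

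Members and lists were chosen with earlier results of these data known. Genes named per direction were the 12 of highest CPM among those with a log2 difference of at least 5 and the 8 of largest difference with at least 32 CPM in the higher tissue and 4 counts in the lower. Each list gave as many as 4 members with the smallest adjusted p-values, as many as 2 whose call opposed its median, and members not called. To these were added the 6 of highest CPM within 0.25 of 0, the 6 of largest spread per tissue, both forms of each pair and 2 unnamed identifiers per direction. HOX genes, fibre genes, regulators of brain regions, family shares, brain C genes and several list members outside this rule were chosen after their values were seen. Some genes of the lists and pairs are not reported here.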

Additional observations from a re-analysis of the deposited data

How the results depend on the processing

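Main counts were 5575 genes higher in brain and 4162 higher in muscle. Scaling by library totals alone gave 7334 and 2333, where the scaling factor alone differs. The other alternatives stayed within 1.5 times of both counts: RLE scaling gave 5594 and 4144, no filter 6157 and 4448, DESeq2 5573 and 4147, limma-voom 5621 and 4180, glmTreat 4795 and 3111, and mitochondrial genes left out 5598 and 4171. Leaving out 1 library at a time gave 5545 to 5698 and 4018 to 4322. With a replicate block on the letters the counts were 5523 and 4128. Deviations of brain and muscle libraries of the same letter correlated at 0.019, 0.033 and -0.043, against -0.0925 to 0.0707 for unlike letters. Deviations from a mean of 3 libraries cannot show whether a letter marks 1 animal, so pairing of the samples stayed unknown.

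Of 1193 named and listed genes tested, none that was called in either of the fits compared changed sign, and 91 that were not called did so under at least 1 setting. With mitochondrial genes left out 1178 of the 1193 had a value. Calls were lost for 117 and gained for 67 with totals alone, and lost for 93 and gained for none with glmTreat. DESeq2, RLE, limma-voom, no filter, the block and the omission of mitochondrial genes each lost 1 to 16 and gained at most 7, and leaving out a library lost 15 to 26 and gained 2 to 14. Lists with a median above 0 numbered 33 with TMM and RLE, 38 with totals alone, and 33 with names by overlap alone, a check chosen after seeing the data.

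The share of all counts in the top 10 genes differed by 0.470 percentage points, brain minus muscle, and by -18.2 over nuclear counts. It was -0.537 to 1.25 on leaving out a library, negative only without brain B. For the top 100 it was -18.0, -33.3 over nuclear counts and -19.2 to -16.9 on leaving out a library. The mitochondrial share differed by 14.4 points, or 13.3 to 15.2. The cause of these changes was not tested. With 3 libraries per tissue, differences of genes at a few reads per library are poorly bounded.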

Other observations

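Brain C differed from brain A and brain B in a set of genes picked after their values were seen. RGS11, a regulator of G proteins, had 5.71, 5.47 and 41.2 CPM in brain. CLK1, a kinase of splicing factors, had 10.4, 7.98 and 60.6 CPM in brain. Both stood several-fold above the other brain libraries in brain C. IQSEC3, of inhibitory synapses, had 152, 174 and 35.9 CPM in brain, and CDH5, the junction cadherin of endothelium, 36.1, 43.7 and 11.3 CPM. PODXL, ENG and ALPL, which brain vessels carry, were also lowest in brain C, with 70.7, 82.9 and 23.6 CPM for PODXL, 59.2, 68.1 and 21.3 CPM for ENG and 71.7, 77.8 and 25.6 CPM for ALPL. Beside these, summed smooth muscle and pericyte markers were 153, 161 and 70.5 CPM in brain, and their part was not tested.

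The genes with the largest spread between brain libraries at 32 CPM or more were IQSEC3, TRANK1, LENG8, WSB1, CLDN5 and PODXL. Between muscle libraries they were MYH1, MYL6B, MT1A, SLC16A3, ACTC1 and SCN4B. MT1A, a metallothionein that binds zinc and copper, had 30.9, 7 and 75.2 CPM in muscle.

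Lymphocyte markers were low in both tissues and 3 of 4 were called higher in brain. CD8A, of cytotoxic T cells, had 9.17, 6.46 and 3.47 CPM in brain, against 0.361, 0.671 and 0.650 CPM in muscle. MS4A1, of B cells, had 4.16, 2.97 and 4.56 CPM in brain, against 0.150, 0.527 and 0.338 CPM in muscle. CD3E, a T cell receptor subunit, was the member called higher in muscle, with 0.110, 0.0928 and 0.0510 CPM in brain, against 0.691, 1.73 and 1.46 CPM in muscle and a difference of -3.88 ± 0.53 (BH adjusted p = 1.89e-04, edgeR). CALCR, the calcitonin receptor, was listed as a marker of satellite cells of muscle. Of 3 tested markers of that list 2 were called higher in muscle and 1, CALCR, higher in brain. CALCR had 19.0, 10.8 and 15.5 CPM in brain, against 0.270, 0.0479 and 0.130 CPM in muscle.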
